A study of Mus musculus with 2 samples.

Results

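NRG1 and EGF were compared within experiment 2 of a study of small intestinal organoids, which are three-dimensional epithelial cultures that grow from crypts. The comparison used 6 of the 18 libraries of the series, 3 with NRG1 and 3 with EGF, chosen by the ligand and experiment given in the deposited sample sheet, and 12195 of the 31053 genes in the table, those with at least 5 counts over the 6 libraries. Crypts came from C57BL/6J mice, 1 wild-type mouse in each of the 2 experiments, and the study's mice were 2 to 4 months old when crypts were isolated. Both groups had first grown for 3 days in medium with EGF, noggin, R-spondin 1 and n-acetylcysteine (and the kinase inhibitor Y-27632 at the start), then spent 24 h without added EGF, and then received either EGF or NRG1 at 100 ng/ml for 24 h. The 3 libraries of a group are called replicates, and no source states that they were separate cultures, so that p-values measure the spread among libraries from 1 mouse, which may be technical. The question put to the data was how the epithelial transcriptome under NRG1 differed from that under EGF. Libraries of the third ligand of experiment 2, EREG, and the libraries of experiment 1 served for the shared spread and for the test between experiments.

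EGF and NRG1 belong to 1 family of growth factors and bind different receptors of the ERBB family. EGF binds EGFR, whereas NRG1 binds ERBB3 and ERBB4, and ERBB3, whose kinase is nearly inactive, signals mainly in a pair with ERBB2. In the intestine, such ligands feed the RAS-ERK and PI3K-AKT routes that keep crypt cells dividing, and in injured epithelium they accompany a return to genes of the fetal gut.

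The 3′ ends of polyadenylated RNA were sequenced and counted by unique molecular identifiers (UMIs), with 1486253 to 1582696 UMIs in the EGF libraries and 1311420 to 1480092 in the NRG1 libraries. The NRG1 libraries were thus the shallower ones, with 12141 to 12278 genes detected against 12536 to 12592 with EGF. The share of mitochondrial RNA was 0.565% to 0.578% with NRG1 and 0.596% to 0.604% with EGF, and that of ribosomal protein mRNA 8.04% to 8.37% and 8.47% to 8.95%. The 6 epithelial marker genes, *Epcam* among them, summed to 7395 to 8152 UMIs per EGF library and 8486 to 9217 per NRG1 library. These sums are not scaled for depth. In the test described below, *Krt8* and *Krt18* of these markers were higher with NRG1. *Epcam*, *Cdh1*, *Vil1* and *Cdx2* did not pass. Fibroblast markers summed to 3 to 5 UMIs with EGF and 3 to 6 with NRG1, with *Pdgfra*, *Lum*, *Gli1* and *Dpt* at 0, and immune markers to 6 to 9 and 6 to 13, with *Ptprc* at 0. Replicate 2 of each ligand was sequenced in a pool of its own, and NRG1 replicate 3 was listed in a tube and not in a plate well. The part that depth played in the results was not tested.

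NRG1 changed the level of 1099 of the 12195 genes (9.01%) relative to EGF by edgeR's quasi-likelihood test, at a Benjamini-Hochberg adjusted p under 0.1. Of these, 655 genes were higher with NRG1 (5.37% of those tested) and 444 lower (3.64%). Most differences were modest: the median size among the 1099 genes was 0.57 on the log2 scale, 117 genes were higher by at least 1 and 103 lower by at least 1. The 3 NRG1 libraries lay all above or all below the 3 EGF libraries for 989 of the 1099 genes, beside 11.1% of all tested genes without overlap upward and 9.98% downward. DESeq2, a second count model, called 521 genes, all of them among the 1099. It gave no adjusted p to 7093 of the tested genes, 236 of the 1099 included. With only the libraries of the larger sequencing pool, those with EREG included, 557 genes passed, 526 of them among the 1099. Leaving out a single library gave 687 to 808 genes, and 375 genes passed each time. The count fell by more than 1.5 times without EGF replicate 1 (732 genes), EGF replicate 2 (687 genes) or NRG1 replicate 3 (731 genes). The median log2 difference over all tested genes was −0.02, so that the scaling left the bulk of genes level.

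**Figure D1:**
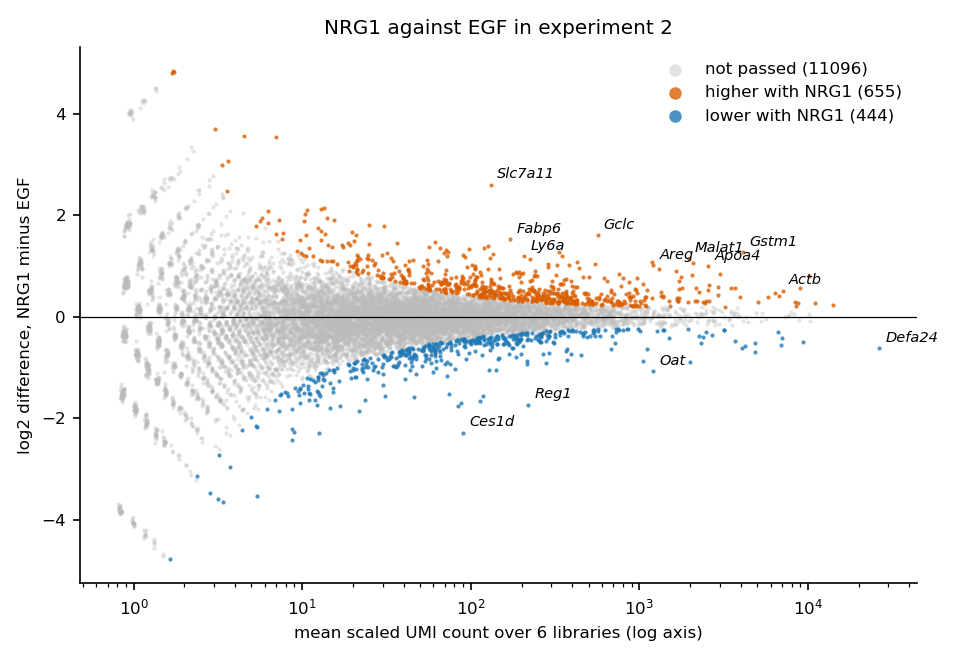
Log2 difference of NRG1 minus EGF (vertical axis) against the mean scaled UMI count over the 6 libraries (horizontal log axis) for 12195 genes, with the 655 genes that passed higher in orange, the 444 that passed lower in blue and the others in grey. Among the labelled genes *Slc7a11* stands highest at 2.61 and *Ces1d* lowest at −2.28.

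NRG1 raised genes that make and use glutathione. Glutathione is the small thiol that keeps the inside of a cell reduced, and its synthesis starts with import of cystine and with glutamate-cysteine ligase. Many genes of this route are induced by the transcription factor NRF2, which escapes its inhibitor KEAP1 under oxidant or electrophile stress and binds antioxidant response elements near its targets. *Slc7a11*, which encodes the cystine importer, stood at 32.8, 39.0 and 38.8 scaled UMI counts in the EGF libraries (replicates 1 to 3) and at 232, 200 and 249 in the NRG1 libraries. The NRG1 libraries all lay far above the EGF libraries, and the log2 difference was 2.61 ± 0.17 (SE; edgeR adjusted p = 1.41e-51), the largest rise of any gene with a mean scaled count of at least 10. Such small p-values come from a spread that edgeR shares across genes, since the 9 libraries of the fit leave 4 residual degrees of freedom.

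*Gclc* encodes the catalytic subunit of glutamate-cysteine ligase. Its scaled UMI counts were 306, 257 and 275 with EGF and 887, 772 and 893 with NRG1. The groups did not overlap, with a log2 difference of 1.61 ± 0.09 (SE; edgeR adjusted p = 3.24e-62). *Gclm*, the regulatory subunit of the same enzyme, was at 933, 936 and 815 with EGF and at 1750, 1668 and 1731 with NRG1, about as tightly grouped, with a log2 difference of 0.94 ± 0.08 (SE; edgeR adjusted p = 1.4e-29). Glutathione synthetase (*Gss*, 0.61), which completes the molecule, glutathione reductase (*Gsr*, 0.70), which recycles it, and the neutral amino acid transporter gene *Slc1a4* (0.59) also rose, with log2 differences in parentheses. In all, 6 of the 12 tested genes of glutathione synthesis and cystine import rose, beside 5.37% of all genes. The list median was 0.46, and the other 6 did not pass. *Slc1a4* no longer passed within the larger sequencing pool.

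Of the glutathione transferases, which join glutathione to reactive compounds, 13 of 21 tested genes rose, beside 5.37% of all genes. The list median was a log2 difference of 0.34. *Gstm1* was at 2462, 2395 and 2312 scaled UMI counts with EGF and at 5424, 6341 and 5667 with NRG1. This log2 difference of 1.28 ± 0.07 (SE) had the smallest adjusted p of all genes (edgeR adjusted p = 1.07e-66). *Gstm3* rose from 1506, 1357 and 1210 to 2696, 2941 and 2859, again without overlap (log2 difference 1.07 ± 0.08, SE). *Gsta1* (0.76), *Gstp1* (0.70) and *Mgst2* (0.70) rose as well, with log2 differences in parentheses. Counts of some of these genes are uncertain, because reads of near-identical copies can be assigned to either: of all 61-nucleotide windows within the final 500 nucleotides of their transcripts, 89.4% in *Gsta1*, 35.8% in *Gstp1* and 19.6% in *Gstm1* also occur in other genes.

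Other genes counted as NRF2 targets in the literature, mostly reductases and enzymes that supply NADPH, showed the same direction: 17 of 22 tested genes rose, beside 5.37% of all genes, and their median log2 difference was 0.56. The quinone reductase gene *Nqo1* was at 62.7, 72.2 and 73.5 scaled UMI counts with EGF and at 160, 206 and 181 with NRG1. The groups did not overlap, at a log2 difference of 1.39 ± 0.15 (SE; edgeR adjusted p = 8.62e-18). The sulfiredoxin gene *Srxn1*, whose product repairs overoxidized peroxiredoxins, went from 54.7, 57.6 and 53.1 to 150, 130 and 139 (log2 difference 1.34 ± 0.17, SE). The carbonyl reductase gene *Cbr3* (1.09), the aldose reductase family gene *Akr1b8* (0.96) and the phosphogluconate dehydrogenase gene *Pgd* (0.79) also rose, with log2 differences in parentheses, as did the malic enzyme gene *Me1* (1.01), the glucose-6-phosphate dehydrogenase gene *G6pdx* (0.70) and the thioredoxin reductase gene *Txnrd1* (0.56). Several NADPH-supplying enzymes were thus among the genes that rose. The transcript of NRF2 itself, *Nfe2l2*, was at 680, 633 and 612 with EGF and at 646, 755 and 667 with NRG1, overlapping levels (log2 difference 0.10 ± 0.09, SE; edgeR adjusted p = 0.625). *Keap1* was at 267, 281 and 257 with EGF and 317, 358 and 325 with NRG1 and passed (log2 difference 0.31 ± 0.10, SE; edgeR adjusted p = 0.0463), but not under DESeq2 or without EGF replicate 2 or 3 or NRG1 replicate 1 or 2 (0.25 to 0.34).

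Short stretches of promoter are shown to make the element visible in genes of this group that rose. The letters TGACNNNGC, a minimal form of the antioxidant response element, were searched on both strands in the RefSeq promoters of mouse build GRCm38.p6, each reaching from 250 bases before to 50 bases after the gene start. Each line below gives 29 bases, 5′ to 3′ on the strand named, with the matching letters in capitals.
Gclm, chr3:122245413-122245441, minus strand: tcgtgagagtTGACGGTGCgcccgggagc
Me1, chr9:86695902-86695930, minus strand: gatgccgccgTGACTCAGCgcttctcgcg
Srxn1, chr2:152105542-152105570, minus strand: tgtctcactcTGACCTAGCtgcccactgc
Txnrd1, chr10:82859104-82859132, minus strand: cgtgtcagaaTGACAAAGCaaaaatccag
G6pdx, chrX:74428919-74428947, plus strand: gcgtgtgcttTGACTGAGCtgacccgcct
Only the first 4 letters and the last 2 of the element are held constant, and the 3 letters between them differ in each of these genes. Among the genes of the 3 lists that rose, 31 had a promoter in the table and 9 of them held a match (29.0%), beside 1622 of the 9500 tested genes with a promoter (17.1%). Among members that did not pass, 3 of 17 held one (17.6%). A match describes letters in this window only.

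**Figure D2:**
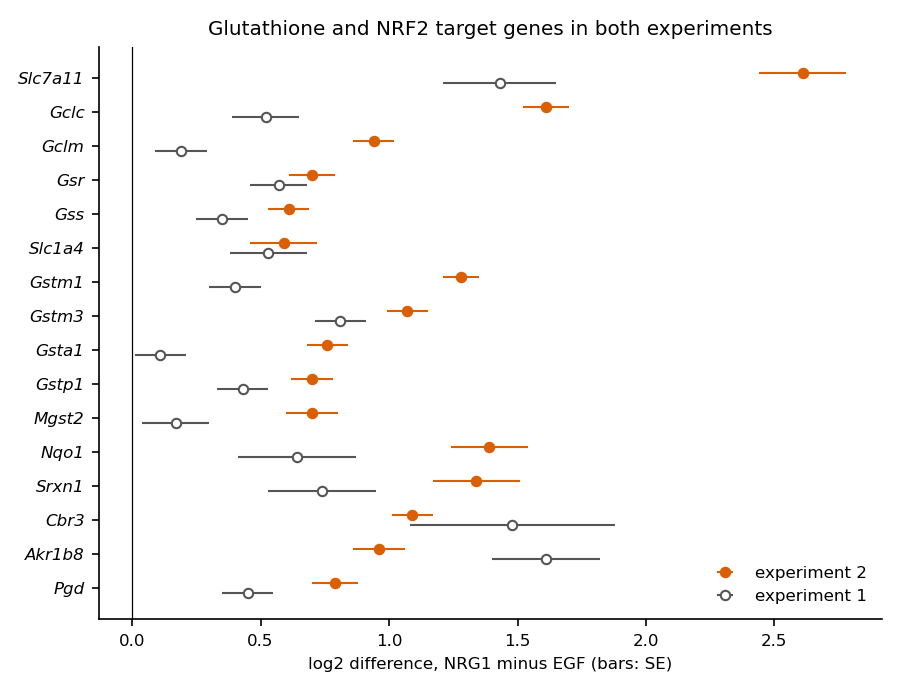
Log2 difference of NRG1 minus EGF (horizontal axis) with its SE for members of the glutathione and NRF2 target lists named in the text, in experiment 2 (filled) and in experiment 1 (open). *Slc7a11*, *Gclc*, *Gclm* and *Gstm1* lie farther right in experiment 2 (2.61, 1.61, 0.94 and 1.28) than in experiment 1 (1.43, 0.52, 0.19 and 0.40).

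NRG1 also raised transcripts of the EGF family itself. Of the 6 tested ligand genes, 5 were higher with NRG1, all of them ligands of EGFR, beside 5.37% of all genes. The study named *Areg* and *Ereg* as raised in libraries that include these, so their direction is not independent evidence. The amphiregulin gene *Areg* stood at 834, 829 and 740 scaled UMI counts with EGF and at 1699, 1608 and 1556 with NRG1. The groups were far apart relative to their spread (log2 difference 1.02 ± 0.08, SE; edgeR adjusted p = 5.77e-34). *Hbegf*, which encodes the heparin-binding member, was at 182, 149 and 180 with EGF and 295, 247 and 294 with NRG1 (log2 difference 0.71 ± 0.12, SE). *Ereg* (log2 difference 1.37) and *Tgfa* (1.13) were low transcripts, at no more than 37.9 in any of these libraries, and each lost its call within the larger pool and without EGF replicate 2 (0.90 and 1.03). *Ereg* also lost it without NRG1 replicate 3 (1.00), and *Tgfa* without NRG1 replicate 1 (1.08). The betacellulin gene *Btc* (0.32) lost its call under DESeq2 and without EGF replicate 1 or 2 or NRG1 replicate 2 or 3 (0.20 to 0.32). *Nrg4*, a ligand of ERBB4, did not pass (log2 difference −0.63 ± 0.35, SE; edgeR adjusted p = 0.35), except without NRG1 replicate 1 (−1.61).

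Among the receptors, no difference passed the test. *Erbb3* was at 184, 196 and 191 scaled UMI counts with EGF and at 160, 201 and 185 with NRG1 (log2 difference −0.07 ± 0.12, SE; edgeR adjusted p = 0.844). *Erbb2* was at 48.7, 51.7 and 60.3 with EGF and at 45.0, 44.1 and 44.9 with NRG1, below every EGF library (log2 difference −0.26; edgeR adjusted p = 0.602). *Egfr*, at 25.9, 17.6 and 11.2 and at 32.0, 27.9 and 21.4, overlapped between the groups (log2 difference 0.58; edgeR adjusted p = 0.335). *Erbb4* and *Nrg1* were listed at 0 counts in all 6 libraries, which allows up to 3 counts each. The 1 gene of the 12 tested receptors and inhibitors that passed was *Errfi1*, whose product binds and inhibits EGFR family kinases: it was at 67.7, 80.0 and 68.4 with EGF and at 166, 134 and 118 with NRG1 (log2 difference 0.94 ± 0.16, SE; edgeR adjusted p = 3.48e-07).

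Feedback genes of ERK signalling and subunits of AP-1, the transcription factor formed by FOS and JUN proteins, were higher in part. *Dusp1*, *Dusp4* and *Dusp5* encode phosphatases that switch off MAP kinases. *Dusp4* was at 33.8, 33.2 and 30.6 scaled UMI counts with EGF and at 98.3, 74.3 and 99.4 with NRG1, without overlap (log2 difference 1.47 ± 0.21, SE; edgeR adjusted p = 4.01e-10). *Dusp1* was at 8.95, 11.7 and 12.3 with EGF and 35.5, 37.2 and 43.8 with NRG1 (log2 difference 1.82 ± 0.33, SE), and *Dusp5* rose by 1.03 but did not pass without NRG1 replicate 2 (0.76). *Ier3* (0.85), *Ccnd1*, the cyclin D1 gene (0.56), and *Phlda1* (0.52) rose, with log2 differences in parentheses. In all, 6 of 18 tested ERK feedback and early genes rose, beside 5.37% of all genes. The other 12 did not pass, and the list median was 0.41. *Fos* rose from 24.9, 48.8 and 37.8 to 105, 99.9 and 80.1 (log2 difference 1.36 ± 0.20, SE), *Jund* by 0.67 and *Jun* by 0.61 on the log2 scale. Of the 10 tested AP-1 genes, 5 rose, beside the same 5.37% of all genes. *Atf3* (0.66) was among the 5 and lost its call under DESeq2 and without EGF replicate 2 or 3 or NRG1 replicate 2 (0.55 to 0.63), and *Junb* (0.42) lost its call within the larger pool.

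Genes of fetal or regenerating gut epithelium rose broadly: 19 of 27 tested genes were higher, beside 5.37% of all genes. This list's median log2 difference of 0.86 was the highest median of the lists with 10 or more tested genes. Part of this list holds genes that the study chose on these libraries, so its direction is not independent evidence. *Ly6a*, which encodes the surface protein Sca-1, was at 116, 136 and 123 scaled UMI counts with EGF and at 303, 240 and 324 with NRG1. Every NRG1 library was above every EGF library (log2 difference 1.20 ± 0.12, SE; edgeR adjusted p = 5.73e-20). The membrane protein gene *Emp1* (0.98), the annexin genes *Anxa3* (1.04) and *Anxa5* (0.89), the claudin gene *Cldn4* (1.08), the tissue factor gene *F3* (0.83) and the urokinase receptor gene *Plaur* (1.26) all rose, with log2 differences in parentheses. The cornified envelope precursor genes *Sprr1a* (0.72) and *Sprr2a3* (1.04) rose too, and 57.2% of the 3′ end windows of *Sprr2a3* are shared with other *Sprr2* genes. *Rhob*, a small GTPase gene, was at 3.98, 5.86 and 7.15 with EGF and 21.3, 17.4 and 28.9 with NRG1 (log2 difference 1.96 ± 0.44, SE). *Anxa1* (0.86) lost its call without any 1 of the EGF libraries and without NRG1 replicate 1 or 3 (0.66 to 0.93). *Clu*, a marker of revival stem cells in mouse, was at 7.96, 12.7 and 8.17 with EGF and 10.7, 11.6 and 10.7 with NRG1, which overlap (log2 difference 0.19 ± 0.44, SE; edgeR adjusted p = 0.894).

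Genes of the actin cytoskeleton were mostly higher. The list counts that follow stand beside 5.37% of all genes higher and 3.64% lower. Of 29 tested actin cytoskeleton genes, 15 rose and 1 fell, at a median of 0.39. Beta-actin (*Actb*) was at 5587, 6279 and 5642 scaled UMI counts with EGF and at 7517, 8992 and 8527 with NRG1, so that a gene often used as a reference differed by 0.52 ± 0.07 on the log2 scale (SE; edgeR adjusted p = 8.15e-12). *Zyx*, which encodes zyxin of focal adhesions, went from 81.6, 74.2 and 83.7 to 127, 149 and 164 (log2 difference 0.88 ± 0.15, SE). Ezrin (*Ezr*, 0.40) and *Tagln2* (0.39) rose less. The exception was *Myl9*, a myosin light chain gene, at 91.5, 113 and 121 with EGF and 40.2, 44.1 and 74.8 with NRG1 (log2 difference −1.03 ± 0.18, SE; edgeR adjusted p = 5.01e-07). Summed UMIs of smooth muscle markers, not scaled for depth, were 14, 25 and 21 in EGF replicates 1 to 3. They were 8, 15 and 12 in NRG1 replicates 1 to 3. The ranges overlap, but the sum was lower with NRG1 at each replicate number. None of the 3 tested markers passed, and 1 was lower at an unadjusted edgeR p under 0.05. Among keratins, the filament proteins of epithelia, 5 of 7 rose, *Krt8* and *Krt18* by 0.58 and 0.57 and *Krt19*, *Krt7* and *Krt23* by 0.47, 0.68 and 0.81 on the log2 scale. Of 15 tight junction genes, the claudin genes *Cldn3* (0.57) and *Cldn4* and the adhesion molecule gene *F11r* (0.41) rose, the claudin gene *Cldn8* (−2.42) fell and the other 11 did not pass, at a median of 0.20. *F11r* lost its call within the larger pool and without EGF replicate 2 (0.36). Of 16 integrin and laminin genes, 3 rose, the laminin gene *Lamb3* (0.61) among them, and 13 did not pass. Of 15 YAP and TEAD target genes, 5 rose, led by *Ccn1* at 6.96, 11.7 and 11.2 with EGF and 26.0, 30.2 and 26.7 with NRG1 (log2 difference 1.46 ± 0.37, SE).

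**Figure D3:**
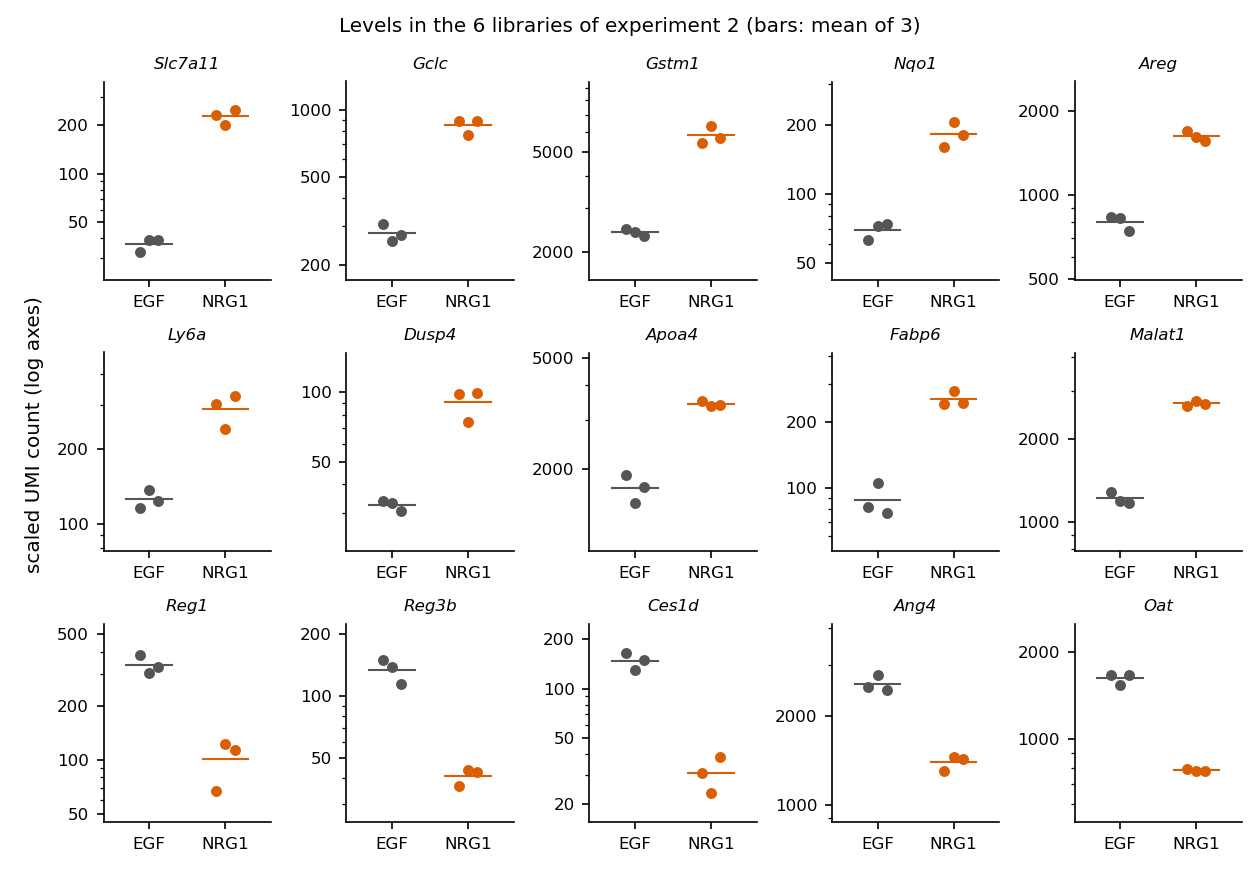
Scaled UMI counts (vertical log axes) in each of the 3 EGF and 3 NRG1 libraries of experiment 2 for 15 genes, with points for libraries and bars at the group mean. NRG1 libraries lie above all EGF libraries for *Slc7a11*, *Gclc*, *Gstm1*, *Nqo1*, *Areg*, *Ly6a*, *Dusp4*, *Apoa4*, *Fabp6* and *Malat1* and below them for *Reg1*, *Reg3b*, *Ces1d*, *Ang4* and *Oat*.

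Genes for taking up and packaging lipid in absorptive enterocytes were higher with NRG1 in 9 of 17 tested cases, and 1 was lower. All genes stand at 5.37% higher and 3.64% lower, and the list median was 0.41. *Apoa4*, an apolipoprotein of chylomicrons, was at 1896, 1510 and 1724 scaled UMI counts with EGF and at 3497, 3362 and 3398 with NRG1 (log2 difference 1.00 ± 0.07, SE; edgeR adjusted p = 1.88e-38). *Fabp1*, a fatty acid-binding protein gene, was at 7999, 6797 and 7443 with EGF and at 11753, 13842 and 13111 with NRG1 (0.80 ± 0.07). Both genes separated the groups fully. The apolipoprotein gene *Apob* went from 29.8, 40.0 and 24.5 to 79.3, 91.8 and 74.8 (1.37 ± 0.22), and the microsomal transfer protein gene *Mttp* (0.48), which loads lipid onto it, and *Acsl5* (0.41), which activates fatty acids, rose less. *Fabp6*, the bile acid-binding protein gene of the ileum, was at 81.6, 105 and 76.6 with EGF and at 243, 278 and 244 with NRG1 (log2 difference 1.53 ± 0.14, SE; edgeR adjusted p = 1.56e-26). The ileal bile acid transporter genes *Slc51b* (0.74) and *Slc10a2* (1.22) rose too, the latter not without EGF replicate 3 (0.84) or NRG1 replicate 3 (0.80). Brush border hydrolases and transporters did not follow as a group: 3 of 23 rose, beside 5.37% of all genes, 1 fell and 19 did not pass, at a median of 0.08. Intestinal alkaline phosphatase (*Alpi*, 0.72), *Tmigd1* (1.35) and *Ezr* were higher, and lactase (*Lct*, −1.10) was lower, the last at an edgeR adjusted p of 0.098 that was lost without any 1 of the EGF libraries or NRG1 replicate 3 (−1.23 to −0.53).

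Sterol and fatty acid synthesis rose by smaller amounts. Of 24 tested genes, 8 were higher, beside 5.37% of all genes, and the others did not pass, at a median of 0.20. *Scd1*, the stearoyl-CoA desaturase gene, was at 106, 81.0 and 73.5 scaled UMI counts with EGF and at 183, 138 and 182 with NRG1 (log2 difference 0.95 ± 0.14, SE; edgeR adjusted p = 4.76e-09). *Insig1*, which retains the sterol sensor SCAP in the endoplasmic reticulum, rose by 0.60.

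Detoxification enzymes moved in both directions, 6 of 24 higher and 3 lower, beside 5.37% and 3.64% of all genes, at a median of 0.10. The genes *Cyp2c68*, *Sult1c2*, *Adh6a* and *Oat*, given below, are not among these 24. The carboxylesterase gene *Ces1d* stood at 166, 130 and 149 scaled UMI counts with EGF and at 30.8, 23.2 and 38.5 with NRG1 (log2 difference −2.28 ± 0.19, SE; edgeR adjusted p = 5.15e-31). The related gene *Ces1f* moved the opposite way, from 491, 459 and 431 to 722, 831 and 787 (0.76 ± 0.09). *Ugt2a3*, a glucuronosyltransferase gene, fell by 1.75 and *Cyp2c68*, a cytochrome P450 gene that shares 42.5% of its 3′ end windows with relatives, by 1.79 on the log2 scale. *Sult1c2*, a sulfotransferase gene, was at 167, 188 and 161 with EGF and 50.9, 44.1 and 66.3 with NRG1 (−1.66 ± 0.16), and the alcohol dehydrogenase gene *Adh6a* at 164, 110 and 114 and at 46.2, 38.3 and 31.0 (−1.75 ± 0.18). The mitochondrial ornithine aminotransferase gene *Oat* went from 1671, 1546 and 1676 to 793, 776 and 777, with tight groups far apart (log2 difference −1.06 ± 0.08, SE; edgeR adjusted p = 3.57e-37).

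Many transcripts of Paneth and goblet cells, and those of *Reg* genes, were lower with NRG1. Hormone-secreting enteroendocrine cells did not follow as a group. Of their 25 tested genes, 1 rose (*Cck*), 2 fell (*Reg4* and *Gip*) and 22 did not pass. All genes stand at 5.37% higher and 3.64% lower, and the list median of −0.17 took the other sign in some setting. Paneth cells sit beside stem cells at the crypt base and release antimicrobial proteins, goblet cells release mucus, and REG proteins are secreted lectins that bind bacteria. All 5 tested *Reg* genes fell, at a median of −1.56. *Reg1* was at 382, 304 and 329 scaled UMI counts with EGF and at 67.5, 122 and 113 with NRG1 (log2 difference −1.73 ± 0.12, SE; edgeR adjusted p = 1.22e-40). *Reg3b* was at 150, 139 and 114 with EGF and at 36.7, 44.1 and 42.7 with NRG1 (−1.70 ± 0.17), and *Reg3a* fell by 1.56, *Reg3g* by 0.90 and *Reg4* by 0.64 on the log2 scale. *Reg1*, *Reg3a*, *Reg3b* and *Reg3g* are genes that the study chose to show for these libraries, so their direction is not independent evidence.

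Of the Paneth cell defensins, 9 of 11 tested genes fell, beside 3.64% of all genes, with all 11 estimates below 0 and a median of −0.63. *Defa24* was at 34370, 29253 and 32035 scaled UMI counts with EGF and at 20082, 20541 and 21794 with NRG1 (log2 difference −0.61 ± 0.06, SE; edgeR adjusted p = 8.2e-19). Individual defensin counts are uncertain, since 91.7% of the 3′ end windows of *Defa17*, 65.9% of *Defa21* and 18.1% of *Defa24* are shared with other defensins. *Defa17*, at 7091, 3978 and 6951 with EGF and 4130, 2643 and 4174 with NRG1, was low in replicate 2 of both groups, so that the groups overlapped across replicates. Of the other Paneth cell genes, 7 of 14 fell, at a median of −0.56. The study showed lowered Paneth cell markers from libraries that include these, so this direction is not independent evidence. The angiogenin gene *Ang4* was at 2516, 2762 and 2464 with EGF and at 1307, 1452 and 1428 with NRG1 (−0.89 ± 0.08), lysozyme (*Lyz1*) fell by 0.41, the matrilysin gene *Mmp7*, whose product activates defensins, by 0.71 and intelectin (*Itln1*) by 0.55. Fewer Paneth cells and less of these RNAs per cell cannot be told apart in bulk RNA, here or for other cell types.

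Goblet cell genes fell in 9 of 17 cases, beside 3.64% of all genes, at a median of −0.43. *Tff3*, the trefoil peptide gene, was at 5223, 4530 and 4942 scaled UMI counts with EGF and at 3247, 2961 and 3373 with NRG1 (log2 difference −0.62 ± 0.07, SE; edgeR adjusted p = 7.75e-16). *Agr2*, a disulfide isomerase gene needed for mucin folding, was at 2700, 2679 and 2806 with EGF and at 1814, 1971 and 1947 with NRG1 (−0.51 ± 0.07). *Spink4* fell by 0.57, the chemokine gene *Ccl9* by 1.16 and the tryptase gene *Tpsg1* by 1.57, the last from 64.7, 62.5 and 79.7 to 24.9, 25.6 and 19.2. The main mucin gene of these cells, *Muc2*, and their transcription factors *Atoh1* and *Spdef* did not pass, with log2 differences of 0.19 ± 0.25, −0.19 ± 0.29 and −0.43 ± 0.31 (SE). The SEs of *Atoh1* and *Spdef* are too wide to tell no change from a fall of the size of the list median. Of 12 tested genes in a list drawn mostly from digestive enzyme granules, 5 fell, beside 3.64% of all genes. They were led by *Ctrb1*, a chymotrypsinogen gene (−1.55), and *Sycn*, syncollin (−1.52). The 5 include *Gip*, an enteroendocrine hormone gene, and *Klk1*, which also counts among the 9 goblet cell genes. The list was chosen with earlier results of these data known, so its direction is not independent evidence.

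**Figure D4:**
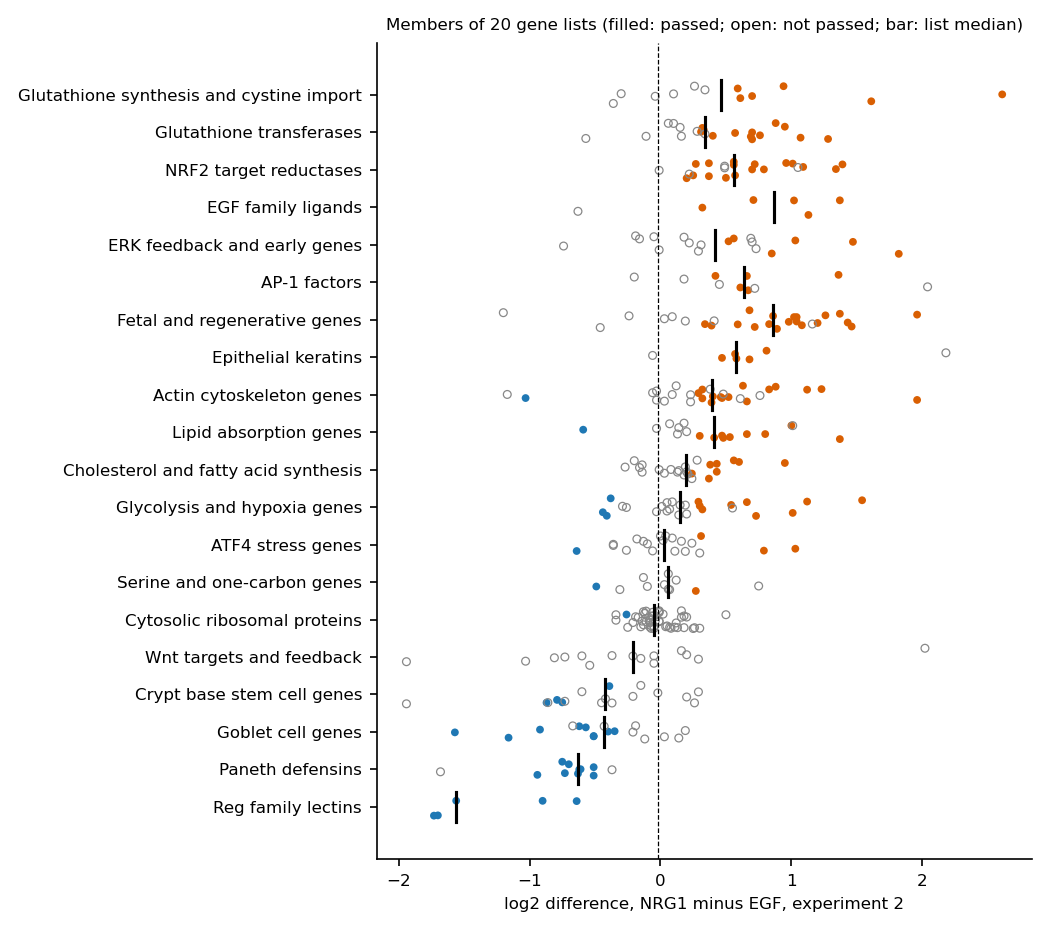
Log2 difference of NRG1 minus EGF for each tested member (points) of 20 gene lists (rows), filled where the member passed the test, with a bar at the list median and a dashed line at the median of all genes, −0.02. Points of the glutathione, NRF2, fetal and lipid lists lie mostly right of 0, those of the *Reg*, defensin and goblet lists left of it, and those of the ribosomal protein list close to it.

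Some stem cell genes fell, and no Wnt target passed. The study showed lowered stem cell markers and Wnt targets from libraries that include these, so a downward direction is not independent evidence. Of 17 crypt base stem cell genes, 4 fell, beside 3.64% of all genes, and 14 had estimates below 0. The median was −0.42, close to that of the goblet list. The 4 included *Slc12a2*, a chloride transporter gene, at 1282, 1298 and 1491 scaled UMI counts with EGF and 741, 785 and 692 with NRG1 (log2 difference −0.87 ± 0.08, SE). The others were the marker *Olfm4* (−0.39), *Cdca7* (−0.79) and *Clca3b* (−0.75). The last 2 of these lost their calls, *Cdca7* without NRG1 replicate 3 (−0.67) and *Clca3b* without EGF replicate 3 (−0.41) or NRG1 replicate 1 (−0.55) and under DESeq2. *Lgr5*, the Wnt-driven receptor gene that defines these cells, was at 63.7, 63.4 and 72.5 with EGF and at 59.2, 47.6 and 66.3 with NRG1, which overlap (−0.21 ± 0.19; edgeR adjusted p = 0.661). Of 15 tested Wnt targets, 0 passed by edgeR's test, at a median of −0.21, and 1 was lower and 0 higher at an unadjusted p under 0.05; DESeq2 gave an adjusted p to 3 of them and called 0. In experiment 1, 6 of these 15 Wnt targets (median −0.55) and 9 of the 17 stem cell genes (median −0.49) were lower, beside 3.68% of all genes. The difference between the experiments passed only for *Sox9*, a crypt transcription factor gene in both lists (0.20 and −0.55, edgeR adjusted p = 0.049). It was lost in 6 of the 12 runs without 1 library (0.69 to 0.75). For experiment 1 these were the runs without EGF replicate 1 or 2 or NRG1 replicate 2. For experiment 2 they were the runs without EGF replicate 2 or 3 or NRG1 replicate 1. Tuft cell genes (8 tested) and Notch and secretory choice genes (11 tested) had 0 calls by edgeR and 0 genes at an unadjusted p under 0.05; DESeq2 gave an adjusted p to 0 and 1 of them and called 0. Of 28 genes of replication and mitosis, 6 rose and 1 fell, beside 5.37% and 3.64% of all genes. The rises were led by the mitotic kinase gene *Aurka* (0.67) and the ubiquitin-conjugating enzyme gene *Ube2c* (0.47). Of 19 p53 targets, 4 rose, beside 5.37% of all genes. They were *Plk3* (1.79), *Sfn*, which encodes 14-3-3 sigma (1.28), *Perp* (0.53) and *Cdkn1a* (0.43), with log2 differences in parentheses. The 50 ribosomal protein genes had a list median of −0.05.

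Metabolic and stress lists were split, and their counts stand beside 5.37% of all genes higher and 3.64% lower. Of 25 glycolysis and hypoxia genes, 9 rose and 3 fell, at a median of 0.15. The peptide hormone gene *Adm* was at 67.7, 83.0 and 59.2 scaled UMI counts with EGF and 131, 132 and 159 with NRG1 (log2 difference 1.01 ± 0.16, SE), and the hexokinase gene *Hk1* rose by 0.73 and the glucose transporter gene *Slc2a1* by 0.66. *Ankrd37*, a hypoxia-inducible gene, fell by 0.38 ± 0.09 and the pyruvate dehydrogenase kinase gene *Pdk1* by 0.41 ± 0.11 on the log2 scale, the latter not without EGF replicate 1 (−0.34). Genes driven by ATF4, the factor of amino acid stress, were mostly level: 3 of 20 rose and 1 fell, at a median of 0.03. *Gdf15*, a stress cytokine gene, was the clearest, at 281, 256 and 224 with EGF and 521, 501 and 525 with NRG1 (1.03 ± 0.10), while the ATF4 targets *Chac1* (−0.36 ± 0.22), *Trib3* (−0.06 ± 0.18) and *Atf4* itself (0.16 ± 0.10) did not pass. Of 11 serine and one-carbon genes, the phosphoserine aminotransferase gene *Psat1* (0.27) passed upward and *Mthfd1* (−0.49) downward, and both lost their calls under DESeq2. *Psat1* also lost it without EGF replicate 1 or 3 or NRG1 replicate 1 or 3 (0.11 to 0.31), and *Mthfd1* without EGF replicate 2 or 3 or NRG1 replicate 2 or 3 (−0.48 to −0.43). Among chaperones of the endoplasmic reticulum, 5 of 21 rose, with *Ero1l*, which makes disulfide bonds, at 1461, 1550 and 1430 and at 2782, 2609 and 2515 (0.83 ± 0.07) and *Hspa5*, the chaperone BiP, at 0.41. The oxidase gene *Duox2*, whose product makes hydrogen peroxide at the cell surface, was at 5.97, 7.81 and 5.11 with EGF and at 26.0, 15.1 and 32.1 with NRG1 (1.91 ± 0.41), and its maturation factor gene *Duoxa2* rose by 1.20. Of 15 NF-kB targets, the inhibitor gene *Nfkbia* (0.84) and the chemokine gene *Cxcl16* (0.79) rose, *Pigr*, the gene of the immunoglobulin transporter (−0.38), fell and 12 did not pass, at a median of −0.07.

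*Malat1*, a long RNA that stays in the nucleus, was at 1290, 1199 and 1175 scaled UMI counts with EGF and at 2647, 2762 and 2703 with NRG1 (log2 difference 1.15 ± 0.08, SE; edgeR adjusted p = 1.82e-47). It made up 0.0774% to 0.0844% of UMIs with EGF and 0.170% to 0.171% with NRG1. Another nuclear RNA, *Neat1*, was at 32.8, 42.0 and 44.9 with EGF and at 46.2, 38.3 and 39.5 with NRG1, overlapping levels (0.05 ± 0.24; edgeR adjusted p = 0.955). Of 9 mitochondrially encoded mRNAs, *mt-Co1* (0.45) and *mt-Nd5* (0.39) passed, the latter not without EGF replicate 1 (0.20) or NRG1 replicate 3 (0.31), and 95.2% of the 3′ end windows of *mt-Co1* are shared with nuclear copies. The abundant *mt-Cytb* was at 2612, 2730 and 2513 with EGF and at 2265, 2693 and 2470 with NRG1 (−0.08 ± 0.07; edgeR adjusted p = 0.65).

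Among the 15 largest rises and 15 largest falls with a mean scaled count of at least 10 and no overlap, most were low transcripts that stand outside the lists above. *Abcc5*, a drug and nucleotide exporter gene, was at 9.95, 0.976 and 4.08 scaled UMI counts with EGF and at 20.1, 26.7 and 19.2 with NRG1 (log2 difference 2.15 ± 0.44, SE; edgeR adjusted p = 7.2e-05). *Pmp22*, a membrane protein gene of epithelia and myelin (2.03), *Unc13a*, which primes vesicles for release (1.67), and *Rbp2*, the cellular retinol-binding protein gene of enterocytes (1.62), followed, as did the transcripts *1700057G04Rik* (2.11) and *9430069I07Rik* (2.12), with log2 differences in parentheses. In *9430069I07Rik* the NRG1 libraries were at 9.47, 37.2 and 17.1, and its call was lost without NRG1 replicate 2, the highest (log2 difference 1.53), and within the larger pool, as was that of *Pmp22* within the pool. *Cytip*, which binds the integrin regulator cytohesin, was at 35.8, 24.4 and 42.9 with EGF and 9.47, 5.81 and 12.8 with NRG1 (−1.86 ± 0.34), and *Aven*, an inhibitor of cell death, also fell (−1.73).

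The same comparison was then set against that of experiment 1, in a model over all 18 libraries that tests the difference of the NRG1 minus EGF effect between the experiments. This difference passed for 175 genes (1.44% of those tested), 89 with a higher effect in experiment 2 and 86 with a lower one, while 1223 had an unadjusted p under 0.05. Each experiment used 1 mouse, so that mouse and experiment cannot be told apart. The count fell by more than 1.5 times without EGF replicate 2 or NRG1 replicate 2 of experiment 1 (109 and 96 genes), or without EGF replicate 2 or EGF replicate 3 of experiment 2 (103 and 105 genes). In the same 18-library model, 957 genes passed in experiment 1 (7.85%), higher for 4.17% and lower for 3.68% of those tested. Of the 1099 genes called in experiment 2 by the 9-library model, 304 also passed there in the same direction and 17 in the opposite one. Values given for experiment 2 are those of the 9-library model, and values for experiment 1 and for the difference those of the 18-library model. For all 17 genes with opposite calls the difference itself passed, with 10 higher and 7 lower under NRG1 in experiment 2. They were picked by opposite calls in the same libraries, so that this pass is not independent evidence.

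Some genes of glutathione synthesis and transfer had larger effects in experiment 2. Of 12 synthesis and import genes, 6 rose in experiment 2 and 8 in experiment 1, at medians of 0.46 and 0.51. Among 21 transferases, 13 and 7 rose, at medians of 0.34 and 0.11. All genes stand at 5.37% and 4.17% higher. In experiment 1, 1 synthesis gene and 2 transferases fell, beside 3.68% of all genes. The difference passed higher for 3 synthesis genes and 5 transferases, beside 0.73% of all genes. It passed lower for 2 synthesis genes and 0 transferases, beside 0.705%. The log2 difference of *Gclc* was 1.61 in experiment 2 and 0.52 in experiment 1, a difference of 1.09 ± 0.17 (SE; edgeR adjusted p = 1.04e-05). For *Gstm1* the values were 1.28 and 0.40 (difference 0.89 ± 0.14, edgeR adjusted p = 2.85e-05), and for *Gclm* 0.94 and 0.19 (difference 0.76 ± 0.14, edgeR adjusted p = 0.000429). *Gsta1* (0.76 and 0.11) and *Slc7a11* (2.61 and 1.43) also passed this test, *Slc7a11* not without EGF replicate 1 of experiment 1 (difference 0.92) or of experiment 2 (1.00). Scaled over all 18 libraries, *Gclc* averaged 118 ± 18.7 (SD, n = 3) with EGF and 172 ± 35.7 with NRG1 in experiment 1, so that its level with EGF already differed between experiments. *Nqo1* (1.39 and 0.64) and *Srxn1* (1.34 and 0.74) did not pass it, with edgeR adjusted p of 0.289 and 0.437 for the difference.

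Genes that moved in opposite directions included transcription factor and growth factor genes. *Jun* was higher by 0.61 with NRG1 in experiment 2 and lower by a log2 difference of −0.76 in experiment 1 (difference 1.37 ± 0.21, SE; edgeR adjusted p = 4.68e-06). *Pdgfa*, a ligand gene for PDGF receptors on mesenchymal cells, went 0.35 and −0.78 (difference 1.14 ± 0.16, edgeR adjusted p = 5.94e-07), the corepressor gene *Lcor* 0.57 and −0.63, and *Ifi27l2b* 0.47 and −0.38. *Ankrd37* went the other way, −0.38 and 0.51, and *Atf5*, a factor downstream of ATF4, −0.64 and 0.68. The experiment 2 calls of *Pdgfa* and *Atf5* were lost within the larger pool, that of *Pdgfa* also without EGF replicate 1 or 2 or NRG1 replicate 2 (0.24 to 0.33), and that of *Atf5* under DESeq2 and without EGF replicate 1 or 3 or NRG1 replicate 2 or 3 (−0.70 to −0.47). *Malat1* had 1.15 in experiment 2 and −0.09 in experiment 1, and *Sox4*, a factor of progenitors, 0.21 and −0.84.

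**Figure D5:**
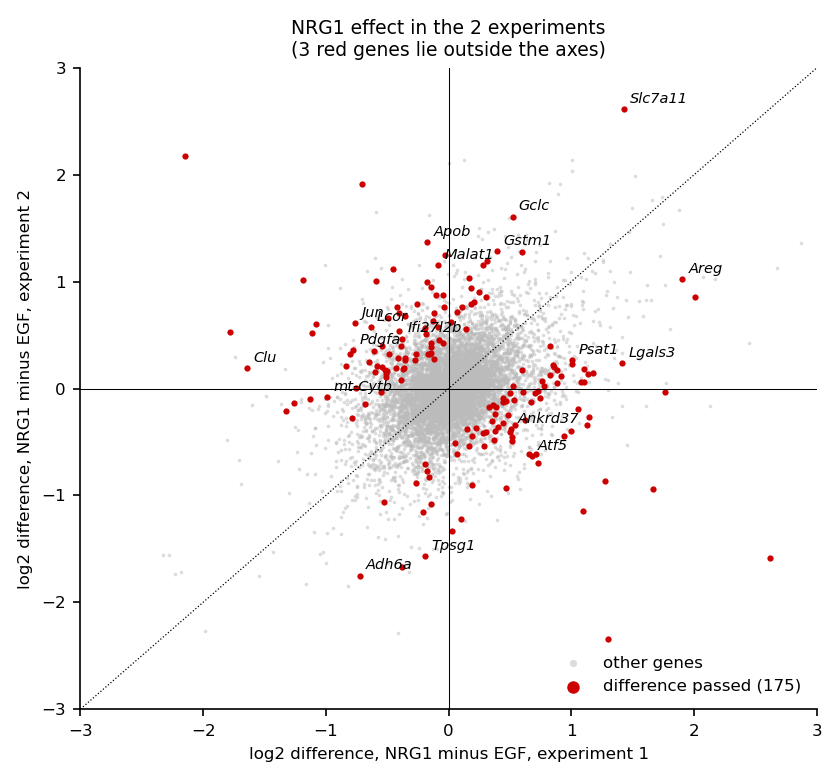
Log2 difference of NRG1 minus EGF in experiment 2 (vertical axis) against experiment 1 (horizontal axis), both from the 18-library model, with the 175 genes whose difference between experiments passed in red and the other genes with a mean scaled count of at least 10 in grey. *Jun*, *Pdgfa*, *Lcor* and *Ifi27l2b* lie at the upper left and *Ankrd37* and *Atf5* in the lower right, and 3 red genes lie outside the axes.

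Secretory, lipid and cytoskeletal genes also differed between the experiments in part. *Agr2* fell by 0.51 in experiment 2 and stood at 0.05 in experiment 1 (edgeR adjusted p = 0.00282 for the difference), and *Ang4*, *Tpsg1* and *Ccl9* fell further in experiment 2, at −0.89, −1.57 and −1.16 against −0.26, −0.19 and −0.21. *Apob* (1.37 and −0.17), *Fabp1* (0.80 and 0.21), *Krt18* (0.57 and −0.08), *Zyx* (0.88 and −0.05), *Ces1f* (0.76 and −0.04), *Ccnd1* (0.56 and −0.19) and *Jund* (0.67 and −0.36) had larger effects in experiment 2, and *Sult1c2* (−1.66 and −0.38), *Adh6a* (−1.75 and −0.73) and *Oat* (−1.06 and −0.53) larger falls. The difference no longer passed for *Apob* without EGF replicate 1 of experiment 1 (1.28), for *Zyx* without NRG1 replicate 2 of experiment 2 (0.83), for *Adh6a* without EGF replicate 1 of experiment 2 (−0.81) and for *Oat* without EGF replicate 3 of experiment 2 (−0.47). It was also lost for *Ces1f* without EGF or NRG1 replicate 2 of experiment 1 or EGF replicate 2 or 3 of experiment 2 (0.60 to 0.76), and for *Sult1c2* without replicate 1 of EGF or of NRG1 in experiment 1 and without NRG1 replicate 2 of experiment 2 (−1.15 to −0.92). Counted by list, 9 of 17 lipid absorption genes rose in experiment 2 and 3 in experiment 1, beside 5.37% and 4.17% of all genes. In this list 2 differences passed. For the actin genes these counts were 15 and 4 of 29, again with 2.

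Other responses of experiment 1 were small in experiment 2. *Lgals3*, the galectin-3 gene, was at 300, 377 and 304 scaled UMI counts with EGF and 352, 372 and 425 with NRG1 in experiment 2 (log2 difference 0.23 ± 0.10, SE; edgeR adjusted p = 0.165, passing only without NRG1 replicate 2 at 0.34 and with just the 6 compared libraries), against 1.42 in experiment 1 (edgeR adjusted p = 5.92e-07 for the difference). ATF4 stress genes rose in 13 of 20 cases in experiment 1, beside 4.17% of all genes, and in 3 here, beside 5.37%. Serine and one-carbon genes rose in 7 of 11 cases in experiment 1 and in 1 here. A lower effect in experiment 2 passed for 5 genes of each list, beside 0.705% of all genes. Among them were *Psat1* (0.27 and 1.01), *Mthfd2* (0.12 and 0.83) and *Chac1* (−0.36 and 1.13). Mitochondrial mRNAs fell in 5 of 9 cases in experiment 1, beside 3.68% of all genes, *mt-Cytb* by 0.99 on the log2 scale. The difference passed for 6 of the 9, beside 1.44% of all genes. *Areg* (1.02 here and 1.91), *Ier3* (0.85 and 2.01) and *Anxa2* (0.39 and 0.83) rose in both experiments and less in experiment 2. The difference was lost for *Ier3* without EGF replicate 1 or 3 or NRG1 replicate 1 of experiment 1 or EGF replicate 3 of experiment 2 (−1.09 to −0.82), and for *Anxa2* without 1 library in 8 of 12 cases (−0.46 to −0.32). That of *Areg* was lost with only the 12 NRG1 and EGF libraries in the model (−0.89). *Clu* stood at −1.64 in experiment 1 and its difference passed (edgeR adjusted p = 0.0447), but not without EGF replicate 1 or 3 or NRG1 replicate 1 or 2 of experiment 2 or NRG1 replicate 2 of experiment 1 (1.74 to 1.87).

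EREG, which like EGF signals through EGFR, was compared with the same 3 EGF libraries, so that its values share the controls of those above and are given only side by side. With EREG 331 genes passed (2.71%), 1.3% of those tested higher and 1.41% lower. *Slc7a11* stood at 0.11 with EREG and 2.61 with NRG1 as log2 differences from EGF, *Gclc* at −0.18 and 1.61, *Gstm1* at −0.09 and 1.28, *Areg* at 0.08 and 1.02, *Malat1* at −0.16 and 1.15 and *Reg1* at −0.20 and −1.73. None of these 6 EREG values passed the test. Among secretory genes, 4 of 11 defensins were lower with EREG too, *Defa24* at −0.38 against −0.61 with NRG1, as were 2 of 5 *Reg* genes, *Reg3g* (−0.37 and −0.90) and *Reg4* (−0.28 and −0.64). Of 17 goblet cell genes 4 were lower with EREG: *Agr2* (−0.24 and −0.51), *Spink4* (−0.36 and −0.57), *Guca2a* (−0.35 and −0.40) and *Muc13* (−0.27 and 0.14, the latter not passing). *Ankrd37* was also lower with both ligands (−0.30 and −0.38). *Sprr1a* was at −0.89 with EREG and 0.72 with NRG1, *Fabp6* at −0.88 and 1.53 and *Apoa4* at −0.48 and 1.00, and these 3 genes passed for both ligands. Of the 22 NRF2 target reductases, 1 rose and 1 fell with EREG, at a median of 0.10.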

How the data were processed

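Organoid RNA was sequenced in 18 libraries, in 2 pools, and each library's ligand, experiment, replicate and pool came from the deposited sample sheet. The table deposited by the authors holds UMI counts per gene, not normalized. Per the labels and the submitters' processing notes, reads were aligned with STAR 2.7.8a to GRCm38, with UMIs counted by BRB-seqTools, MultiQC and DESeq2 also named, and an annotation release not given in the sources used here. Of 31053 gene identifiers, 30934 matched GENCODE vM21 symbols, and a reporter row with 6 counts (2.05e-05%) was left out.

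Genes with at least 5 counts over the 6 compared libraries (12195) were tested with edgeR 4.0.16 in R 4.3.3 (TMM scaling, robust quasi-likelihood fit, ligand and replicate as terms, 4 residual degrees of freedom) on the 9 libraries of experiment 2. The prior degrees of freedom were infinite for 11506 of these genes, so that their spread is the shared trend, and the median biological coefficient of variation was 13.7%. The difference between experiments was tested in 1 model of ligand by experiment and replicate over 18 libraries (10 residual degrees of freedom). The threshold was a Benjamini-Hochberg adjusted p under 0.1. The SE of a log2 difference is its size over the root of its F statistic, and printed levels are TMM-scaled UMI counts. DESeq2 1.42.0 and the other settings of the closing section were alternatives.

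On simulated counts for 11926 genes, the NRG1 and EGF comparison recovered 67 of 68 genes changed by 2 on the log2 scale, 48 of 66 changed by 1 and 23 of 66 changed by 0.5, and called 5 of 11726 unchanged genes. For the difference between experiments these were 65 of 68, 40 of 66 and 4 of 66, with 6 of 11726. These recoveries and false calls describe the simulated counts only. Whether they hold for the real libraries, where same-number pairs of replicate 2 correlated at 0.301 to 0.353, was not tested. Replicate libraries of the 6 compared differed by more than sampling noise in every pair (chi-square per degree of freedom 1.54 to 3.00). Totals of 1311420 to 1582696 UMIs leave transcripts of a few counts imprecise.

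Named genes are the 15 largest rises and falls with a mean scaled count of at least 10 and no overlap between the groups, the 10 of smallest adjusted p in each direction, up to 6 of smallest adjusted p in each of 56 gene lists, the 10 of smallest adjusted p for the difference between experiments, and genes the study names or draws for its RNA sequencing. The genes *Atf4*, *Chac1*, *Erbb3*, *G6pdx*, *Keap1*, *Me1*, *Muc2*, *Nfe2l2*, *Muc13*, *Pdk1*, *Plaur*, *Sox9*, *Trib3* and *Txnrd1* were chosen after their values were seen. The comparison, its members and the lists were chosen with earlier results of these data known. Promoter letters are from RefSeq, which had an entry for 9500 of the 12195 genes. Results of some genes that the rule names are not reported here.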

Additional observations from a re-analysis of the deposited data

Results flagged for a closer look

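The NRG1 minus EGF effect differed between the 2 experiments for 175 genes in the 18-library edgeR model, a test of the difference itself, and 42 of these genes are described above. The values that follow are the log2 effect in experiment 2 minus that in experiment 1. Among genes of glutathione, they were 1.19 for *Slc7a11*, 1.09 for *Gclc*, 0.89 for *Gstm1*, 0.76 for *Gclm* and 0.65 for *Gsta1*. Among transcription factors and early genes, they were 1.37 for *Jun*, 1.21 for *Lcor*, 1.05 for *Sox4*, 0.75 for *Sox9*, 1.03 for *Jund*, 0.76 for *Ccnd1*, −1.15 for *Ier3* and −1.31 for *Atf5*. Among secreted growth factors and inflammatory genes, *Pdgfa* had 1.14, *Areg* −0.88, *Ifi27l2b* 0.85 and *Ccl9* −0.95.

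Secretory cell genes differed by −0.56 (*Agr2*), −0.62 (*Ang4*), −0.51 (*Mmp7*) and −1.38 (*Tpsg1*), all with lower effects in experiment 2. Enterocyte and detoxification genes differed by 1.54 (*Apob*), 0.60 (*Fabp1*), 0.80 (*Ces1f*), −1.03 (*Adh6a*), −1.29 (*Sult1c2*) and −0.53 (*Oat*). Cytoskeletal and fetal genes differed by 0.66 (*Krt18*), 0.93 (*Zyx*), 0.68 (*Sfn*), 1.84 (*Clu*), −0.43 (*Anxa2*) and −1.18 (*Lgals3*). Stress and metabolic genes differed by −1.47 (*Chac1*), −0.74 (*Psat1*), −0.70 (*Mthfd2*), −0.89 (*Ankrd37*) and −0.71 (*Pdk1*). The nuclear RNA *Malat1* differed by 1.24, and the mitochondrial mRNAs *mt-Cytb*, *mt-Nd5* and *mt-Co1* by 0.91, 0.78 and 0.53. Of the 12 runs without 1 library, the difference was lost in 8 for *Mmp7*, in 8 for *Sfn* and in 7 for *mt-Co1*.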

How the results depend on the processing

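The 1099 genes that passed in experiment 2 numbered 521 under DESeq2's Wald test. They numbered 557 with only the libraries of the larger pool, EREG included, and 687 to 808 without 1 library. DESeq2 gave no adjusted p to 236 of the 1099, and the cause of the rest of that gap was not tested. The other settings named here use fewer libraries. The remaining alternatives gave 814 to 1248 genes: 1248 with only the 6 compared libraries, 860 in the 18-library fit, 1107 with DESeq2 size factors, 1111 with the study's filter, 1082 at a mean count of at least 10, 1004 with no filter beyond 1 count and 819 at an adjusted p under 0.05. The 175 differences between experiments numbered 306 with 6 replicate terms, 272 with the 12 NRG1 and EGF libraries, 190 with DESeq2 size factors, 154 under DESeq2 and 96 to 210 without 1 library (109, 96, 103 and 105 in the 4 runs named above).

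Without the replicate block, 814 genes passed in experiment 2 and 92 in the difference between experiments. The block follows the study's methods. Of 9 pairs of libraries of experiment 2 with the same number, 7 had a correlation of deviations over 0.1 (0.081 to 0.353, against −0.233 to 0.108 for other pairs), and 8 of 9 libraries correlated best with one of their own number, so that the numbers do not show a pairing throughout. Replicate 2 of each ligand was in the smaller pool, and its same-number pairs correlated at 0.301 to 0.353. Same-number pairs of replicates 1 and 3 correlated at 0.081 to 0.181. For replicate 2, number and pool cannot be told apart. Among the 144 genes named as passing, 6 lost their call without the block, *Gstp1* and *Defa17* among them. The difference between experiments was lost without the block for *Areg* (−0.92), *Gsta1* (0.67), *Ier3* (−1.18), *Anxa2* (−0.44), *Mmp7* (−0.52), *Sfn* (0.67), *Sox9* (0.75) and *mt-Co1* (0.53). Chosen after seeing the data, a fit without the 2 libraries in tubes gave 815 genes, and a fit of the 6 libraries without the block 977.

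Of the 144 named genes that passed, 118 did so in each of the 18 settings that gave them a value and 26 lost the call in at least 1, while 2 others gained one. No named gene that passed changed direction. The median of 10 of 49 lists, each with a median of −0.17 to 0.12, took the other sign in some setting. *Ereg* and *Tgfa* were low transcripts, and the part of depth in their lost calls was not tested.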
